A study of Homo sapiens with 8 samples.

Results

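The genes described here are 31 genes of cholesterol and fatty acid synthesis in human breast epithelial cells, out of 19775 genes with a probe set of their own on the array. They were 15 enzymes of the sterol pathway, 6 genes of sterol control and transport, and 10 enzymes of fatty acid and glycerolipid synthesis. All were chosen by name, with earlier results of these data known. Each gene was represented by its brightest probe set, which is the one with the highest mean log2 signal over all arrays among those annotated to that gene alone. Of the 31 genes, 30 were measured in this way, and ACSL3 was not analysed here. The study profiled RNA on 8 arrays in 4 groups of 2. These were trMCF clone 11, trMCF clone 11 after 26 days in 1 μM all-trans retinoic acid (ATRA), the same clone after 26 days in 10 μM ATRA, and MCF-10F. MCF-10F is a spontaneously immortalized, normal-like breast epithelial line. trMCF clone 11 is 1 ring-cloned colony of MCF-10F cells that had been exposed to a high dose of estradiol, so all clone 11 arrays descend from a single clone. No source states if trMCF clone 11 without ATRA was kept in the DMSO vehicle, or if replicate arrays stand for separate cultures, and the p-values then measure only the spread between arrays.

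Cells make cholesterol from acetyl-CoA through mevalonate, isoprenoid diphosphates and squalene, and the last steps turn lanosterol into cholesterol. The enzymes of this route are switched on together by the transcription factor SREBP-2 (gene SREBF2), which the escort protein SCAP carries out of the endoplasmic reticulum when sterols are low and which INSIG proteins hold back when sterols are high. Fatty acids are built from the same acetyl-CoA by ACLY, ACACA and FASN, lengthened by ELOVL6 and desaturated by SCD, mainly under SREBP-1 (gene SREBF1).

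Promoter sequences are shown for the 4 members that fell in trMCF clone 11 relative to MCF-10F (FDPS, NSDHL, EBP and ELOVL6), and for MVK, a sterol enzyme with no call in any comparison. They are the 250 bases before the RefSeq start of each gene in build GRCh38.p14, written 5′ to 3′ on the strand of the gene, with every CCAAT and its reverse complement ATTGG in capitals. CCAAT is the box bound by NF-Y, a factor known to act beside SREBP on sterol genes. The windows were chr1:155308616-155308865 for FDPS, chrX:152830813-152831062 for NSDHL, chrX:48521558-48521807 for EBP and chr12:109573544-109573793 for MVK, all on the plus strand, and chr4:110198616-110198865 for ELOVL6 on the minus strand.
FDPS: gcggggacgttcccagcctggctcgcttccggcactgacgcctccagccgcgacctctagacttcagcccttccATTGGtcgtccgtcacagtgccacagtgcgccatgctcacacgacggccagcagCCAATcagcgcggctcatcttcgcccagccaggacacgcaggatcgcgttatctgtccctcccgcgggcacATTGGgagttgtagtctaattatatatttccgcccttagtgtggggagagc
NSDHL: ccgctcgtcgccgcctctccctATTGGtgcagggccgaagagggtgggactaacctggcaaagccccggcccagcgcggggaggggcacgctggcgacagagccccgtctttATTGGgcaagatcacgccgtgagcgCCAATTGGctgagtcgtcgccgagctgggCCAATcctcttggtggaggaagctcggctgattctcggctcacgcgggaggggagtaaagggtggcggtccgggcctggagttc
EBP: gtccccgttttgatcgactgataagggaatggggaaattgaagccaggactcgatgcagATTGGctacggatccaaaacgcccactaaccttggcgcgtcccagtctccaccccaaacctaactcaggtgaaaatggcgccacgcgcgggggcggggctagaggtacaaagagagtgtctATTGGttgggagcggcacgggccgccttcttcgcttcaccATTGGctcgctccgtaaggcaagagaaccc
MVK: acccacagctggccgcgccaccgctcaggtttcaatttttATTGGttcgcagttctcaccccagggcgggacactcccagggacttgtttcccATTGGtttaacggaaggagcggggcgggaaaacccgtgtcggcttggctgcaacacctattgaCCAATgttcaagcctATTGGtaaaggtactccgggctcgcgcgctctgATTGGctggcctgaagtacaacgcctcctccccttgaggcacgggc
ELOVL6: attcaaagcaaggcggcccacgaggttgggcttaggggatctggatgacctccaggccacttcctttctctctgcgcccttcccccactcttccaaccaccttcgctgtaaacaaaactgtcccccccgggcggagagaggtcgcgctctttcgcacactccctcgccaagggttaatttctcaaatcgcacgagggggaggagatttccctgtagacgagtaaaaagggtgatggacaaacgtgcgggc

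The windows held 3 matches to CCAAT in FDPS, 5 in NSDHL, 3 in EBP, 5 in MVK and 0 in ELOVL6, and a pair of the NSDHL matches on opposite strands overlapped. Over the full 300 bases of each RefSeq promoter (250 before and 50 after the start), 14 of 18 promoters of sterol enzymes held CCAAT on either strand (77.8%), against 34.6% of all 35116 promoters. More than 1 match was present in 11 of these 18 (61.1%), against 10.8% of all promoters. The 18 promoters belonged to 13 sterol enzymes, since SQLE and ACAT2 were not matched, and PMVK was the only one of the 13 with no match to CCAAT. Of the promoters of fatty acid enzymes, 8 of 16 held CCAAT (50%). These 16 belonged to 9 genes, ACSL3 among them, since FASN was not matched. The sterol element TCACNCCAC, a form of the SREBP site, was found on either strand in 1.13% of all promoters. Among the members with a promoter it was found only in SREBF2. Other forms of the SREBP site were not searched, so a window without this form may hold another. Each match is a description of the letters in the window. MVK and NSDHL had 5 boxes each, and their differences between trMCF clone 11 and MCF-10F were -0.09 and -1.53 on the log2 scale. These genes were picked with their values known, and a relation of boxes to differences was not tested.

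The array medians of the signal were 47.4 to 48.9, but replicate arrays were not equally close. The share of probe sets whose signal differed over 2-fold between replicates was 7.71% in trMCF clone 11, 0.126% at 1 μM ATRA, 0.211% at 10 μM ATRA and 3.48% in MCF-10F. Sterol enzymes took part in this spread: 13 of 15 were lower on trMCF clone 11 replicate 1 than on replicate 2, with a median gap of 0.50 on the log2 scale. In MCF-10F, 15 of 15 were higher on replicate 1 than on replicate 2, with a median gap of 0.64. A label of trMCF clone 11 replicate 1 calls it normal while the title names the clone, and the title decided its group. Of the epithelial markers, EPCAM had log2 signals of 12.23 to 12.96 and CDH1 (E-cadherin) of 12.13 to 12.52 on all 8 arrays. KRT14 was at 5.09 to 7.73 on the 4 ATRA arrays and at 10.38 to 13.16 on the others, and KRT19 was at 4.73 to 6.17 throughout. CYP26B1, an enzyme that breaks ATRA down, rose over trMCF clone 11 by 2.86 with 1 μM ATRA (adjusted p = 0.016) and by 2.74 with 10 μM (adjusted p = 0.00261).

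Sterol enzymes were lower in trMCF clone 11 than in MCF-10F. All 15 had the lower mean in the clone, where 42% of all genes did. Their differences ranged from -1.72 to -0.07 on the log2 scale with a median of -1.02, against a median of 0.06 over all genes. With the mean of all probe sets of each gene in place of the brightest, the median was -0.57. Both clone arrays lay below both MCF-10F arrays for 12 of the 15, against 20.8% of all genes. Of the 30 members, 4 fell and 0 rose at a Benjamini-Hochberg adjusted p under 0.05 from limma, where 2.64% of all genes fell and 1.88% rose. At an unadjusted p under 0.05, 11 members were lower and 0 higher, where 12.4% of all genes were lower and 10.6% higher. By the criterion of the study, a fold of 2 with an unadjusted p of 0.05, 8 members were lower, 7 of them sterol enzymes, against 5.96% of all genes. In bulk RNA, fewer cells of a type and less RNA per cell cannot be told apart.

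**Figure D1:**
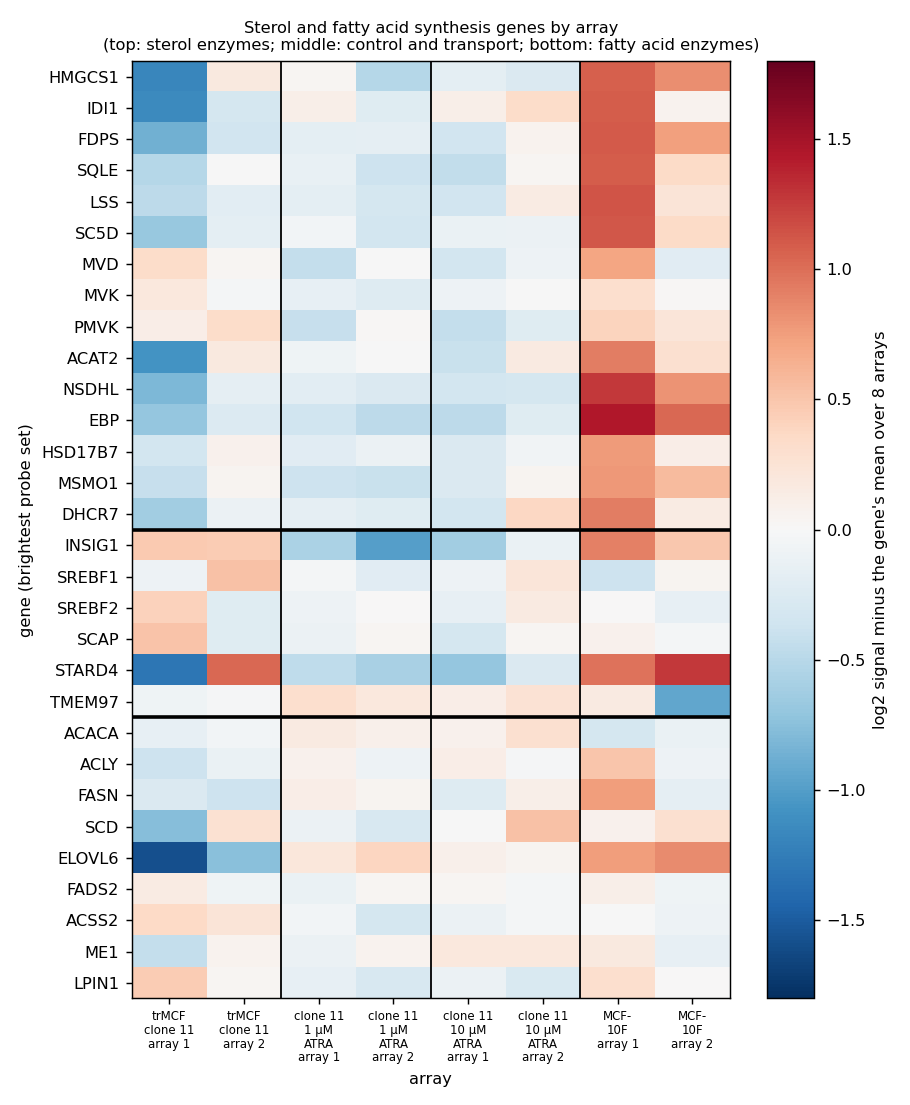
Log2 signal of the 30 measured genes (rows) on the 8 arrays (columns, in the order trMCF clone 11, 1 μM ATRA, 10 μM ATRA and MCF-10F), drawn as the difference from the gene's own mean over the 8 arrays in log2 units. All 15 sterol enzymes in the upper block have their highest mean in MCF-10F and their highest value on its replicate 1. For MVD, MVK, PMVK, IDI1 and DHCR7, MCF-10F replicate 2 lies below some clone 11 arrays. ELOVL6 in the lower block is lowest on the 2 trMCF clone 11 arrays.

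The first steps of the sterol route join acetyl-CoA units. ACAT2, which makes acetoacetyl-CoA, differed by -1.05 ± 0.43 (SE) between trMCF clone 11 and MCF-10F (adjusted p = 0.252). HMGCS1, which adds the next unit to give HMG-CoA, differed by -1.45 ± 0.45 (adjusted p = 0.15). It averaged 8.25 ± 0.953 in trMCF clone 11, 8.50 ± 0.389 at 1 μM, 8.52 ± 0.0519 at 10 μM and 9.69 ± 0.172 in MCF-10F (log2 signal, SD, n = 2 each). The 3 enzymes of the mevalonate steps, the kinases MVK and PMVK and the decarboxylase MVD, had the smallest differences of the class. These were -0.09 for MVK (95% interval -0.51 to 0.33), -0.08 for PMVK (-0.57 to 0.41) and -0.07 for MVD (-0.88 to 0.74), and the arrays of the 2 groups overlapped for each.

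IDI1 and FDPS make the isoprenoid chains. IDI1, the isopentenyl diphosphate isomerase, had log2 signals of 9.62 and 10.44 in trMCF clone 11, 10.86 and 10.54 at 1 μM, 10.86 and 11.09 at 10 μM, and 11.85 and 10.82 in MCF-10F. Its clone arrays were the 2 lowest, and its ATRA arrays overlapped MCF-10F. The difference of IDI1 between trMCF clone 11 and MCF-10F was -1.31 ± 0.42 (adjusted p = 0.157). FDPS, which makes farnesyl diphosphate at the branch point to sterols and prenylated proteins, had log2 signals of 10.35 and 10.87 in trMCF clone 11, 11.05 and 11.06 at 1 μM, 10.87 and 11.28 at 10 μM, and 12.32 and 11.96 in MCF-10F. All 6 clone 11 arrays lay below both MCF-10F arrays. FDPS fell by 1.53 ± 0.23 in trMCF clone 11 relative to MCF-10F, a 2.90-fold difference (adjusted p = 0.0326).

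The committed sterol steps begin with squalene. SQLE, the squalene epoxidase, differed by -0.98 ± 0.30 between trMCF clone 11 and MCF-10F, and LSS, which closes the rings to give lanosterol, by -1.02 ± 0.31 (adjusted p = 0.148 and 0.14). MSMO1, which acts in the removal of methyl groups, differed by -0.86 ± 0.20 (adjusted p = 0.0794), and HSD17B7, a reductase of the same step, by -0.57 ± 0.26 (adjusted p = 0.313). NSDHL, the decarboxylating dehydrogenase between them, had log2 signals of 7.65 and 8.30 in trMCF clone 11, 8.27 and 8.21 at 1 μM, 8.13 and 8.15 at 10 μM, and 9.73 and 9.27 in MCF-10F. All 6 clone 11 arrays of NSDHL lay below both MCF-10F arrays. NSDHL fell by 1.53 ± 0.27 in trMCF clone 11 relative to MCF-10F, a 2.88-fold difference (adjusted p = 0.0445).

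EBP, the isomerase that moves a double bond in the sterol ring, had the largest difference among the 15 sterol enzymes. Its log2 signals were 8.49 and 8.94 in trMCF clone 11, 8.84 and 8.72 at 1 μM, 8.72 and 8.97 at 10 μM, and 10.63 and 10.23 in MCF-10F. The 6 clone 11 arrays lay between 8.49 and 8.97, all below MCF-10F. EBP fell by 1.72 ± 0.22 in trMCF clone 11 relative to MCF-10F, a 3.29-fold difference (adjusted p = 0.025). SC5D, the desaturase that follows, differed by -1.16 ± 0.31 (adjusted p = 0.112), and DHCR7, the final reductase, by -0.90 ± 0.30 (adjusted p = 0.179).

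The calls depended on which arrays were in the fit, while the median of the sterol enzymes stayed below 0 without any 1 array. The 4 calls between trMCF clone 11 and MCF-10F became 2 without trMCF clone 11 replicate 1, 9 without trMCF clone 11 replicate 2, 0 without MCF-10F replicate 1, 2 without MCF-10F replicate 2, and 0 without either 1 μM array. In a fit with an array left out, the group with 1 array is assumed to vary like the others. The 8 members past the study's criterion became 4 without trMCF clone 11 replicate 1, 13 without trMCF clone 11 replicate 2, 4 without MCF-10F replicate 1 and 12 without MCF-10F replicate 2. The median of the sterol enzymes was -0.73 without trMCF clone 11 replicate 1 and -1.23 without trMCF clone 11 replicate 2. It was -0.73 without MCF-10F replicate 1 and -1.37 without MCF-10F replicate 2.

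**Figure D2:**
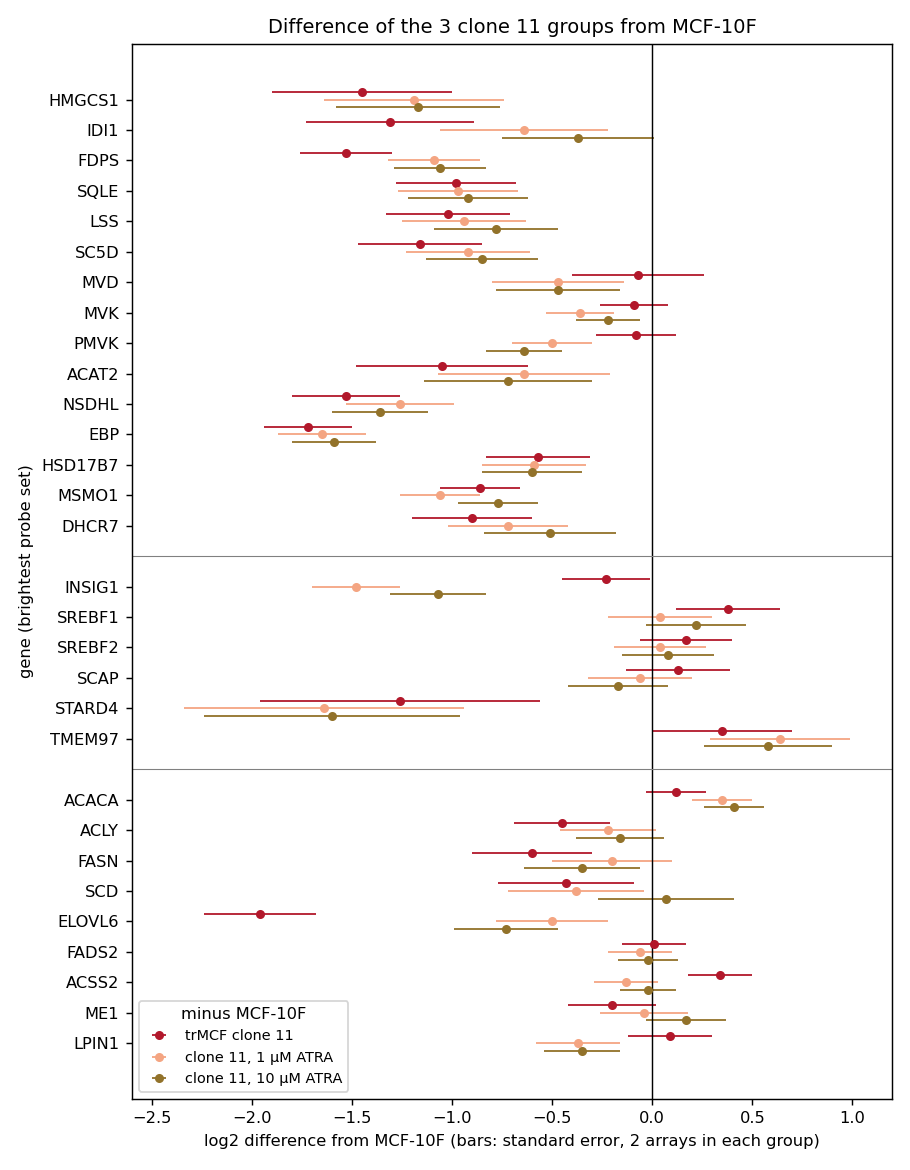
Log2 difference from MCF-10F of trMCF clone 11, trMCF clone 11 in 1 μM ATRA and trMCF clone 11 in 10 μM ATRA for each of the 30 measured genes, with the standard error as bars (2 arrays in each group). All 15 sterol enzymes (top block) lie left of 0 for the 3 groups, and ELOVL6 (bottom block) lies at -1.96 for trMCF clone 11 and at -0.50 and -0.73 for the treated clone.

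ATRA-treated clone 11 cells were also set against MCF-10F, using the same MCF-10F arrays as above. At 1 μM, the 15 sterol enzymes again all had the lower mean in the treated clone, with a median of -0.92 against 0 over all genes, and 13 of 15 did not overlap with MCF-10F, against 24.2% of all genes. No member passed an adjusted p under 0.05 from limma in this comparison, where 0.470% of all genes fell and 0.142% rose, and 10 members were lower at an unadjusted p under 0.05, against 6.47% of all genes. By the study's criterion 6 members were lower, against 2.57% of all genes. EBP differed by -1.65 ± 0.22 (adjusted p = 0.0615) and NSDHL by -1.26 ± 0.27 (adjusted p = 0.172). With all 8 arrays in the fit, EBP and INSIG1 passed, at adjusted p = 0.0175 and 0.0403. Calls numbered 3 without either trMCF clone 11 array and 0 without any other 1 array. Without MCF-10F replicate 1 the sterol median was -0.49 and 3 members met the study's criterion, and without MCF-10F replicate 2 10 did.

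At 10 μM, 15 of 15 sterol enzymes were lower in mean than in MCF-10F, with a median of -0.77 against 0.05 over all genes, and 12 of 15 did not overlap, against 21.0% of all genes. EBP fell by 1.59 ± 0.21 (adjusted p = 0.0167) and NSDHL by 1.36 ± 0.24 (adjusted p = 0.0453) in 10 μM ATRA relative to MCF-10F. These were 2 of 30 members, where 1.81% of all genes fell and 0.759% rose. By the study's criterion 6 members were lower, against 3.32% of all genes. The 2 calls became 7 without either trMCF clone 11 array, 1 without either MCF-10F array, and 0 without any 1 of the 4 ATRA arrays. Without MCF-10F replicate 1 the sterol median was -0.46, and 2 members met the study's criterion without that array or without 10 μM replicate 1.

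Sterol enzymes had no call between either dose of ATRA and trMCF clone 11. Of all genes, 0.971% rose and 0.925% fell at 1 μM, and 3.94% rose and 3.89% fell at 10 μM. No call among 15 sterol enzymes is near these shares. At 1 μM over trMCF clone 11, 10 of 15 had the higher mean and 5 the lower, with a median of 0.08 on the log2 scale against -0.06 over all genes. At 10 μM, 11 had the higher mean and 4 the lower, with a median of 0.17 against -0.01. Without trMCF clone 11 replicate 1 the medians were -0.16 at 1 μM and -0.14 at 10 μM, and without replicate 2 they were 0.29 and 0.38. For EBP the 95% interval of the difference from trMCF clone 11 was -0.48 to 0.61 at 1 μM and -0.37 to 0.63 at 10 μM, and for FDPS it was -0.11 to 1.01 and -0.08 to 1.02. IDI1 had the largest differences of the class, at 0.67 ± 0.42 at 1 μM (adjusted p = 0.455) and 0.94 ± 0.38 at 10 μM (adjusted p = 0.22). PMVK lay on the other side, with log2 signals of 7.64 and 8.07 at 1 μM and 7.62 and 7.83 at 10 μM, against 8.18 and 8.38 in trMCF clone 11. Its ATRA arrays were all below the clone arrays, and the differences were -0.42 ± 0.20 at 1 μM (adjusted p = 0.335) and -0.55 ± 0.19 at 10 μM (adjusted p = 0.15).

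**Figure D3:**
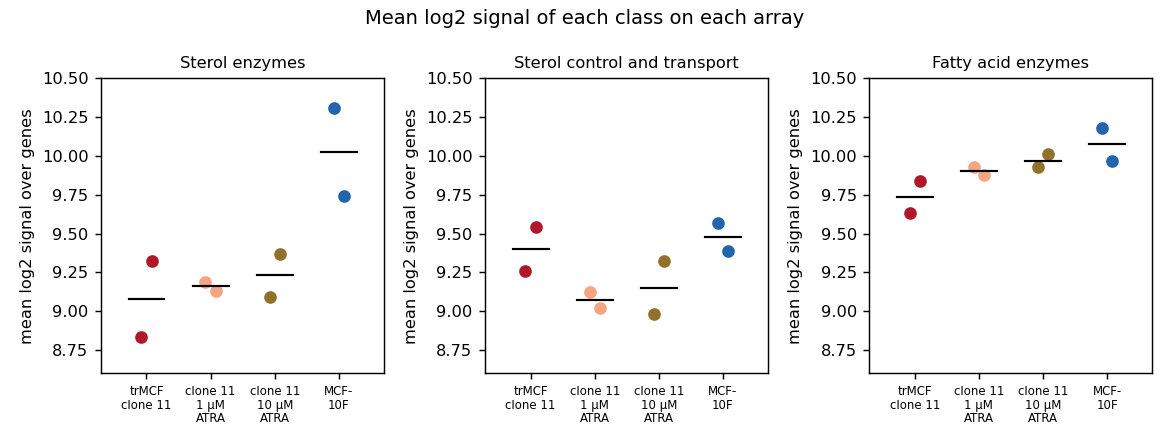
Mean log2 signal over the 15 sterol enzymes, 6 genes of sterol control and transport and 9 fatty acid enzymes on each array (points, 2 per group) with the mean of the 2 arrays (line). The sterol enzymes averaged 8.83 and 9.32 in trMCF clone 11, 9.19 and 9.13 at 1 μM, 9.09 and 9.37 at 10 μM, and 10.31 and 9.74 in MCF-10F, and the fatty acid enzymes lay between 9.63 and 10.18 on all arrays.

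Genes that control the sterol pathway had no call, and SREBF1, SREBF2 and SCAP differed by 0.13 to 0.38 between trMCF clone 11 and MCF-10F. SREBF2 differed by 0.17 between trMCF clone 11 and MCF-10F (95% interval -0.40 to 0.74), and SREBF1 by 0.38 (-0.27 to 1.02). SREBF1 had log2 signals of 9.04 and 9.67 in trMCF clone 11, 9.10 and 8.94 at 1 μM, 9.04 and 9.36 at 10 μM, and 8.76 and 9.19 in MCF-10F, and these overlapped between all groups. SCAP, the escort protein, had 9.30 and 8.57 in trMCF clone 11, 8.68 and 8.82 at 1 μM, 8.46 and 8.82 at 10 μM, and 8.86 and 8.75 in MCF-10F, also with overlap throughout. Over the 6 genes of control and transport, 0 passed an adjusted p under 0.05 in any comparison (limma). No comparison had more than 3.94% of all genes rising or 3.89% falling. The median difference of the 6 genes between trMCF clone 11 and MCF-10F was 0.15.

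INSIG1, which holds the SCAP and SREBP complex back, had the largest difference of these 6 genes between either dose of ATRA and trMCF clone 11. Its log2 signals were 9.72 and 9.29 at 1 μM and 9.66 and 10.16 at 10 μM, against 10.76 and 10.74 in trMCF clone 11 and 11.19 and 10.77 in MCF-10F. The 4 ATRA arrays lay below the 4 others. The difference was -1.25 ± 0.22 at 1 μM over trMCF clone 11, 2.37-fold, with an adjusted p of 0.0594, and -0.84 ± 0.24 at 10 μM, with an adjusted p of 0.0949. Neither passed the threshold in those fits, and the 1 μM difference passed with all 8 arrays (adjusted p = 0.0326) and without trMCF clone 11 replicate 2 (adjusted p = 0.0454). Against MCF-10F, INSIG1 differed by -1.48 ± 0.22 at 1 μM (adjusted p = 0.0789) and, at 10 μM, by -1.07 ± 0.24 (adjusted p = 0.0903). Its other 2 probe sets differed by -0.96 and -1.21 at 1 μM and by -0.87 and -0.76 at 10 μM over trMCF clone 11, and none of these passed. In trMCF clone 11 relative to MCF-10F the difference of INSIG1 was -0.23 (95% interval -0.77 to 0.32).

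STARD4, a carrier of sterols between membranes, was the least certain member. Its log2 signals were 7.41 and 9.75 in trMCF clone 11, 8.26 and 8.13 at 1 μM, 8.01 and 8.45 at 10 μM, and 9.69 and 9.98 in MCF-10F, so that the 2 clone arrays were 2.34 apart and spanned the treated arrays. The 4 ATRA arrays lay below both MCF-10F arrays, with differences of -1.64 ± 0.70 at 1 μM and -1.60 ± 0.64 at 10 μM (adjusted p = 0.516 and 0.335). TMEM97, a membrane protein tied to cholesterol transport, had 10.45 and 10.51 in trMCF clone 11, 10.83 and 10.71 at 1 μM, 10.65 and 10.78 at 10 μM, and 10.68 and 9.59 in MCF-10F. The clone arrays of TMEM97 fell between the 2 MCF-10F arrays, and its difference between the 2 lines was 0.35 ± 0.35. A dimmer probe set of TMEM97 rose by 0.78 in trMCF clone 11 (adjusted p = 0.0485).

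**Figure D4:**
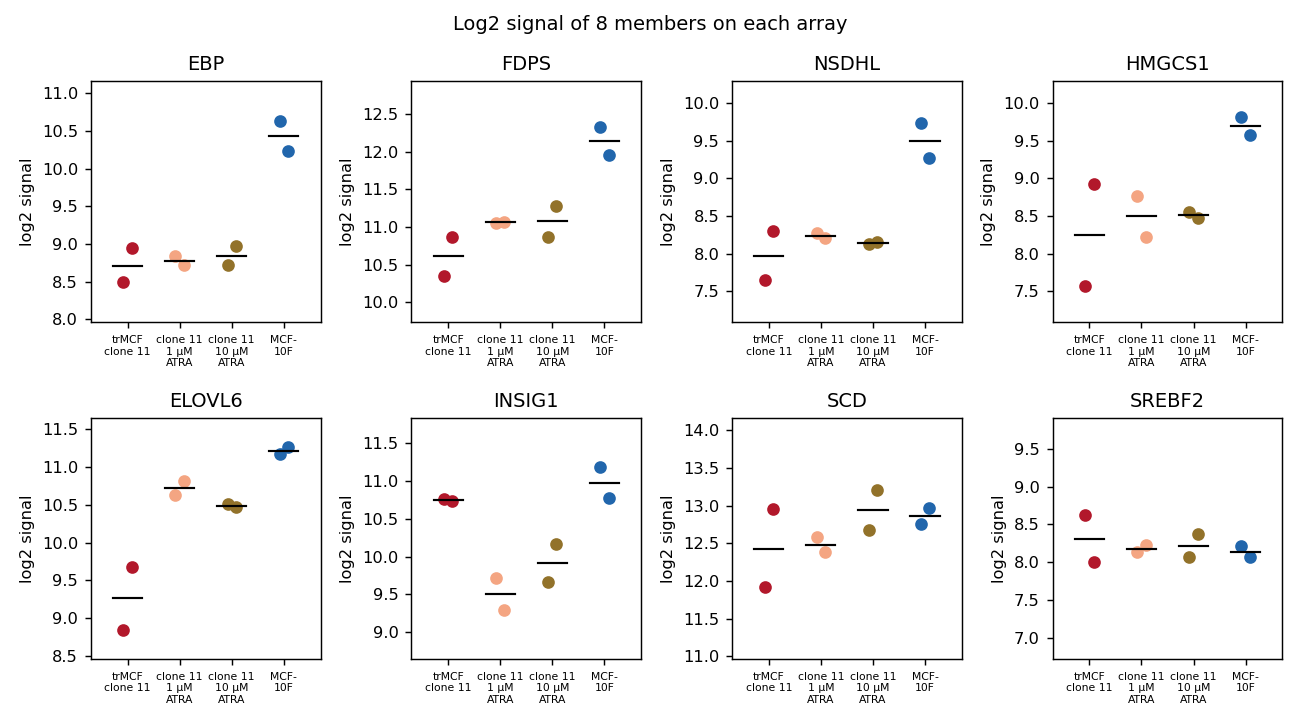
Log2 signal of 8 members on each array (points, 2 per group) with the group mean (line), for trMCF clone 11, 1 μM ATRA, 10 μM ATRA and MCF-10F from left to right; each panel spans the same number of log2 units. EBP, FDPS and NSDHL are low in the 3 clone 11 groups, ELOVL6 is low in trMCF clone 11 and higher in both ATRA groups, and INSIG1 is lower in both ATRA groups.

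Fatty acid enzymes had a median difference of -0.20 between trMCF clone 11 and MCF-10F, and 1 of the 9 fell. The median was -0.10 and -0.45 without trMCF clone 11 replicate 1 and 2, and -0.05 and -0.32 without MCF-10F replicate 1 and 2. It was -0.43 with a probe set that carries no suffix for shared targets in place of the brightest where the gene had one. Genes without one, ACSS2 among them, kept their brightest. ELOVL6, which lengthens palmitate to stearate, had log2 signals of 8.84 and 9.67 in trMCF clone 11, 10.63 and 10.81 at 1 μM, 10.51 and 10.47 at 10 μM, and 11.17 and 11.27 in MCF-10F. The 3 sets did not overlap: the clone arrays were lowest, the 4 ATRA arrays lay in between, and the MCF-10F arrays were highest. ELOVL6 fell by 1.96 ± 0.28 in trMCF clone 11 relative to MCF-10F, a 3.89-fold difference (adjusted p = 0.0315). It rose by 1.24 ± 0.26 at 10 μM ATRA over trMCF clone 11, a 2.36-fold difference (adjusted p = 0.0385). At 1 μM the difference over trMCF clone 11 was 1.47 ± 0.28 with an adjusted p of 0.0701. The 1 μM fit held 6 arrays and the 10 μM fit 8. With all 8 arrays the 1 μM difference passed (adjusted p = 0.0251 by limma). With 6 arrays the 10 μM difference did not (adjusted p = 0.093). These comparisons share the trMCF clone 11 arrays, so a low value there enters each of them. Relative to MCF-10F, ELOVL6 differed by -0.50 ± 0.28 at 1 μM (adjusted p = 0.681) and, at 10 μM, by -0.73 ± 0.26 (adjusted p = 0.266).

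The calls for ELOVL6 covered its other probe sets. They measure the same gene on the same arrays and are not further samples. The other 2 probe sets fell by 1.82 and 2.41 in trMCF clone 11 relative to MCF-10F (adjusted p = 0.0244 and 0.0161). They rose by 1.71 and 2.29 at 1 μM (adjusted p = 0.0399 and 0.0264) and, at 10 μM, by 1.52 and 2.0 (adjusted p = 0.0125 and 0.00738) over trMCF clone 11. For the brightest probe set, the 10 μM difference over trMCF clone 11 was 0.82 without trMCF clone 11 replicate 1 (adjusted p = 0.0329) and 1.65 without replicate 2 (adjusted p = 0.00142), both with a lone clone array whose spread is taken from the other groups. It missed the threshold without either MCF-10F array (adjusted p = 0.0522) and without either 1 μM array (adjusted p = 0.093). Without 10 μM replicate 1 or replicate 2 the adjusted p was 0.226 or 0.204.

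**Figure D5:**
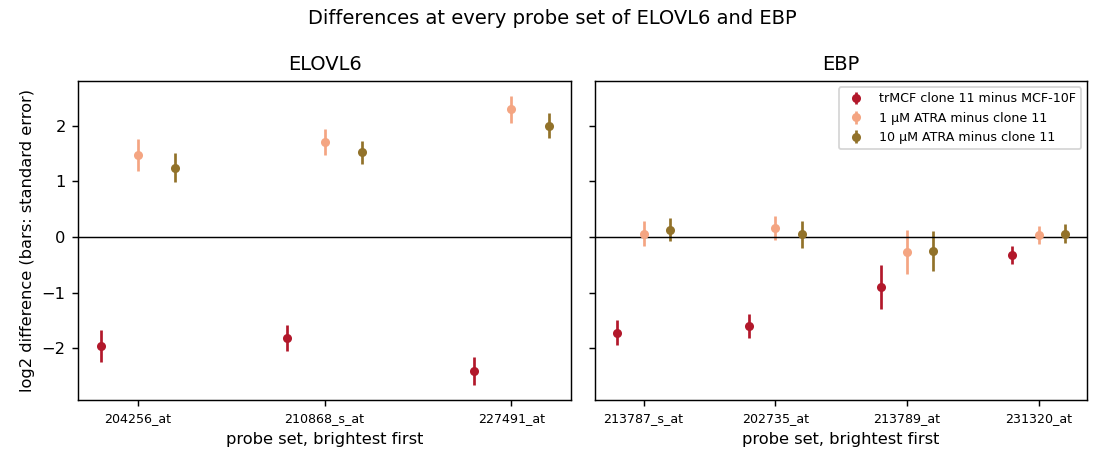
Log2 differences with standard errors at each probe set of ELOVL6 (left) and EBP (right), brightest first, for trMCF clone 11 minus MCF-10F, 1 μM ATRA minus trMCF clone 11 and 10 μM ATRA minus trMCF clone 11. All 3 ELOVL6 probe sets lie below 0 for the first difference and above 0 for the ATRA differences, while the EBP probe sets lie below 0 for the first and within 0.27 of 0 for the other two.

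ELOVL6 was the only member called between 10 μM ATRA and trMCF clone 11, 1 of 30 higher and 0 lower, where 3.94% of all genes rose and 3.89% fell. It was also the only one past the study's criterion on the higher side, against 4.66% of all genes. At 1 μM over trMCF clone 11, 0 members were called by limma, where 0.971% of all genes rose and 0.925% fell, and 1 member was higher and 2 were lower at an unadjusted p under 0.05, where 11.8% of all genes were higher and 9.83% lower. The study's criterion took ELOVL6 as higher (4.87% of all genes) and INSIG1 as lower (3.02% of all genes). Calls at 1 μM numbered 1 without trMCF clone 11 replicate 1, 2 without replicate 2, and 0 without any other 1 array. Calls at 10 μM numbered 2 and 3 without those clone arrays and 0 without any other 1 array.

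The other 8 fatty acid enzymes had no call in any comparison, where at most 3.94% of all genes rose and 3.89% fell. FASN, the synthase, had log2 signals of 8.57 and 8.46 in trMCF clone 11, 8.95 and 8.88 at 1 μM, 8.60 and 8.93 at 10 μM, and 9.58 and 8.66 in MCF-10F. ACLY, which supplies acetyl-CoA from citrate, had 11.40 and 11.66 in trMCF clone 11, 11.85 and 11.68 at 1 μM, 11.89 and 11.75 at 10 μM, and 12.28 and 11.68 in MCF-10F. For both, the clone arrays were the lowest of the 8, by differences of -0.60 ± 0.30 for FASN and -0.45 ± 0.24 for ACLY relative to MCF-10F (adjusted p = 0.346 and 0.374). SCD, the desaturase that makes oleate, had 11.92 and 12.95 in trMCF clone 11, 12.58 and 12.39 at 1 μM, 12.67 and 13.21 at 10 μM, and 12.76 and 12.97 in MCF-10F, with overlap between trMCF clone 11 and every other group.

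ACSS2 and LPIN1 lay the other way. ACSS2, which makes acetyl-CoA from acetate, had log2 signals of 8.38 and 8.12 at 1 μM and 8.33 and 8.40 at 10 μM, against 8.79 and 8.66 in trMCF clone 11 and 8.42 and 8.34 in MCF-10F. Its clone arrays were the 2 highest, and the ATRA arrays overlapped MCF-10F. ACSS2 differed by -0.47 ± 0.16 at 1 μM (adjusted p = 0.196) and, at 10 μM, by -0.36 ± 0.14 (adjusted p = 0.217) over trMCF clone 11. LPIN1, a phosphatase of glycerolipid synthesis, had 10.05 and 9.90 at 1 μM and 10.08 and 9.92 at 10 μM, against 10.65 and 10.23 in trMCF clone 11 and 10.50 and 10.20 in MCF-10F. The 4 ATRA arrays of LPIN1 were the lowest, with differences of -0.46 ± 0.21 and -0.43 ± 0.19 over trMCF clone 11 (adjusted p = 0.308 and 0.261). ACACA, the carboxylase that commits acetyl-CoA to fatty acids, ME1, a source of NADPH, and FADS2, the desaturase of polyunsaturated fatty acids, differed by 0.12, -0.20 and 0.01 between trMCF clone 11 and MCF-10F. FADS2 had the lowest signal of the class, at 5.43 to 5.7 on all arrays. The 4 ATRA arrays of ACACA, at 10.34 to 10.55, lay above all others, at 9.94 to 10.21.

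No member was called between the doses of ATRA. Between 10 μM and 1 μM, fitted on the 4 treated arrays, 0 of 30 members were called by limma and 0 had an unadjusted p under 0.05. Among all genes 0% rose and 0% fell, with 3719 of 54613 probe sets at an unadjusted p under 0.05. The median difference was 0.06 for both the sterol and the fatty acid enzymes, and -0.10 to 0.19 and -0.01 to 0.10 with an array left out. The 95% interval was -0.25 to 0.38 for EBP, -0.51 to 0.05 for ELOVL6 and -0.10 to 0.91 for INSIG1.

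Other genes of these pathways were taken from 2 longer lists. Of 13 further sterol genes, 7 were measured and 0 were called by limma in any comparison. Between trMCF clone 11 and MCF-10F, 2.64% of all genes fell and 1.88% rose. At an unadjusted p under 0.05, 3 of the 7 were lower there and 0 higher, where 12.4% of all genes were lower and 10.6% higher. By the study's criterion 3 were lower, against 5.96% of all genes. The 4 sterol genes with the smallest p were MBTPS2, INSIG2, LBR and AACS. MBTPS2, a protease that releases SREBP, differed by -1.43 ± 0.29 between trMCF clone 11 and MCF-10F (adjusted p = 0.0606), and INSIG2, the partner of INSIG1, by -1.40 ± 0.45 (adjusted p = 0.158). LBR, a nuclear envelope protein with sterol reductase activity, differed by -1.04 ± 0.41 between trMCF clone 11 and MCF-10F and by 1.20 ± 0.41 between 1 μM ATRA and trMCF clone 11 (adjusted p = 0.235 and 0.198). AACS, which activates acetoacetate, differed by -0.44 ± 0.15 at 1 μM over trMCF clone 11 (adjusted p = 0.208).

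Of 21 further genes of fatty acid and glycerolipid synthesis, 19 were measured. Between trMCF clone 11 and MCF-10F 0 were called by limma, with 2 higher and 4 lower at an unadjusted p under 0.05, where 10.6% of all genes were higher and 12.4% lower. Over trMCF clone 11, 1 rose and 1 fell at 1 μM, where 0.971% of all genes rose and 0.925% fell. At 10 μM 2 rose and 1 fell, where 3.94% of all genes rose and 3.89% fell. ACSL5, an acyl-CoA synthetase, had log2 signals of 8.18 and 8.09 at 1 μM and 7.78 and 8.19 at 10 μM, against 6.48 and 5.52 in trMCF clone 11 and 5.75 and 6.03 in MCF-10F. The 4 ATRA arrays lay above all others. ACSL5 rose by 2.13 ± 0.32 at 1 μM (adjusted p = 0.0469) and, at 10 μM, by 1.98 ± 0.31 (adjusted p = 0.0174) over trMCF clone 11, and by 2.09 ± 0.31 at 10 μM over MCF-10F (adjusted p = 0.0245).

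ACSL4, an acyl-CoA synthetase that prefers polyunsaturated fatty acids, moved the opposite way. It had log2 signals of 8.85 and 8.79 at 1 μM and 8.86 and 8.84 at 10 μM, against 10.01 and 10.70 in trMCF clone 11 and 9.99 and 10.06 in MCF-10F. The 4 ATRA arrays lay below all others. ACSL4 fell by 1.54 ± 0.24 at 1 μM (adjusted p = 0.0498) and, at 10 μM, by 1.51 ± 0.22 (adjusted p = 0.0142) over trMCF clone 11. ELOVL7, an elongase of long-chain fatty acids, rose by 0.66 ± 0.14 at 10 μM over trMCF clone 11 (adjusted p = 0.0449) and differed by 0.67 ± 0.16 at 1 μM (adjusted p = 0.104).

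Not every probe set of a member followed its brightest one. A second EBP probe set fell by 1.60 in trMCF clone 11 relative to MCF-10F (adjusted p = 0.0267), and the second NSDHL probe set differed by -1.32 (adjusted p = 0.0693). Dimmer probe sets of IDI1, with mean log2 signals of 5.37 and 6.99, differed by 0.50 and 0.46 between trMCF clone 11 and MCF-10F. A dim one of SC5D differed by 0.14. The brightest of IDI1 and SC5D differed by -1.31 and -1.16. A further IDI1 probe set with a mean log2 signal of 10.74 differed by -1.31. Of the 30 brightest probe sets, those of 2 genes (IDI1 and HSD17B7) carry the array's suffix for probes that may match unrelated transcripts, and those of 12, EBP and SC5D among them, the suffix for a probe set that matches several transcripts. Their signal may be shared. A probe set of SQLE with a mean log2 signal of 6.37 fell by 1.76 at 1 μM (adjusted p = 0.0324) and, at 10 μM, by 2.12 (adjusted p = 0.0121) over trMCF clone 11, where the brightest differed by 0.01 and 0.06. Between trMCF clone 11 and MCF-10F this SQLE probe set differed by 0.98 (adjusted p = 0.0719 by limma), against -0.98 at the brightest. The remaining SQLE probe sets differed there by -1.04 and -0.64. A dim HMGCS1 probe set fell by 1.15 at 10 μM (adjusted p = 0.0366), where the brightest differed by 0.27.

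Markers of other cell types were read beside these values. Of 10 fibroblast markers, 3 fell in trMCF clone 11 relative to MCF-10F (COL1A2, DCN and FAP) and 0 rose. Among all genes 2.64% fell and 1.88% rose. The mean log2 signal of the 10 markers was 5.48 and 5.55 in trMCF clone 11, 5.31 and 5.27 at 1 μM, 5.28 and 5.32 at 10 μM, and 6.38 and 6.24 in MCF-10F. Relative to MCF-10F 2 fell at 1 μM and 3 fell at 10 μM, where 0.470% and 1.81% of all genes fell. Over trMCF clone 11, 2 fell and 1 rose at 10 μM, where 3.89% of all genes fell and 3.94% rose. The list had its highest means in MCF-10F, as the sterol enzymes did, and its part in the sterol differences was not tested. COL3A1, PDGFRA and LUM were at 2.74 to 4.67 on all 8 arrays. Others were brighter: FAP was at 10.61 and 10.29 in MCF-10F and at 8.33 and 8.31 in trMCF clone 11. COL1A1 was at 10.39 and 9.13 in MCF-10F and at 7.98 and 8.95 in trMCF clone 11. In MCF-10F, COL1A2 was at 7.54 and 7.59 and DCN at 7.33 and 7.64. Of 10 adipocyte markers, 1 fell in trMCF clone 11 relative to MCF-10F (LPL, by 1.68, adjusted p = 0.0239 by limma) and 0 rose. The shares of all genes there were 2.64% and 1.88%. At 10 μM over trMCF clone 11, 1 rose (PPARG, by 0.81, adjusted p = 0.0361), where 3.94% of all genes rose. The adipocyte markers had a mean of 5.37 to 5.58 on all arrays, with ADIPOQ at 2.83 to 3.25, LEP at 3.76 to 4.37 and FABP4 at 4.19 to 4.58. PPARG was brighter, at 8.35 to 9.41 on all arrays. LPL was at 6.80 and 7.31 in MCF-10F and at 4.80 to 5.44 on the other arrays. Of 8 epithelial markers measured, KRT14, a basal keratin, fell by 6.66 ± 0.79 at 10 μM over trMCF clone 11 (adjusted p = 0.00836), and its part in the differences under ATRA was not tested.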

How the data were processed

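The 8 samples were hybridised to Affymetrix U133 Plus 2.0 arrays. The authors summarised probe brightness to 1 linear intensity per probe set and scaled the arrays before deposit. The methods name Microarray Suite as well as Iterative Plier, without stating which gave the deposited table. Intensities were taken as log2 without further scaling or filter. Tests covered 54613 probe sets and left out 62 controls. Of those tested, 41091 name 1 gene, 1801 several and 11721 none in the annotation used. The tests were those of limma 3.58.1 in R 4.3.3 (lmFit and eBayes, 1 mean for each group, two-sided), with Benjamini-Hochberg adjustment over all 54613 probe sets, and the scripts were tested on simulated data. Comparisons among trMCF clone 11, 1 μM ATRA and MCF-10F used those 6 arrays, those of 10 μM with trMCF clone 11 or MCF-10F all 8, and the dose comparison its 4 arrays. Value columns matched to no sample numbered 0. With 2 arrays in each group, their number limits the precision of every value.

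The members, lists and tests were chosen with earlier results of these data known. Values on every array are given for members called in any comparison and for the 3 of each class with the largest difference in trMCF clone 11 over MCF-10F or in either ATRA dose over trMCF clone 11; from the longer lists, genes called or the 4 with the smallest p. Other probe sets and cell type markers named were chosen after their values were seen. Promoters came from a RefSeq table. Alternatives were other sets of arrays, quantile normalization, a floor of 16, leaving out dim probe sets, a trend and robust prior, a replicate block, other probe sets of a gene, the study's criterion and each array left out. Figures were drawn with matplotlib 3.10.9.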

Additional observations from a re-analysis of the deposited data

How the results depend on the processing

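Counts of members called or past the study's criterion were recomputed under the alternatives, and medians under those that change the values. Other counts were not recomputed, and the cause of the changes was not tested. Members called in trMCF clone 11 over MCF-10F numbered 4, and 8 by the study's criterion, 0 with only the 4 arrays compared, 0 with a floor of 16, 2 with the replicate block (FDPS and NSDHL at adjusted p = 0.0555 and 0.0706) and 0 to 9 with an array left out. In 1 μM ATRA over trMCF clone 11 they numbered 0, and 2 by the study's criterion, 2 with all 8 arrays, 1 with the mean of all probe sets and 0 to 2 with an array left out. In 1 μM ATRA over MCF-10F they numbered 0, and 6 by the study's criterion, 2 with all 8 arrays, 3 with only the 4 arrays, 1 with quantile normalization and 0 to 3 with an array left out. In 10 μM ATRA over trMCF clone 11 they numbered 1, and 0 with 6 arrays, with only the 4 arrays and with the floor, and 0 to 3 with an array left out. In 10 μM ATRA over MCF-10F they numbered 2, and 6 by the study's criterion, 0 with 6 arrays, 4 with only the 4 arrays, 0 with the floor, 1 with the trend and robust prior, 1 with the replicate block (NSDHL at adjusted p = 0.067) and 0 to 7 with an array left out. Counts by the study's criterion over MCF-10F, alternatives added after seeing the data, were 8 for trMCF clone 11 (5 with the floor, 4 to 13 with an array left out), 6 at 1 μM (3 to 10) and 6 at 10 μM (2 to 7).

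The sterol median in trMCF clone 11 over MCF-10F was -0.57 with the mean of all probe sets and -1.37 to -0.73 with an array left out. With an array left out it was -0.16 to 0.29 at 1 μM and -0.14 to 0.38 at 10 μM over trMCF clone 11, -1.16 to -0.49 at 1 μM and -1.04 to -0.46 at 10 μM over MCF-10F, and -0.10 to 0.19 between doses. The fatty acid median in trMCF clone 11 over MCF-10F was -0.43 with probe sets free of a shared-target suffix where a gene had one. It was -0.45 to -0.05 with an array left out. At 10 μM over trMCF clone 11 it was 0.02 with the mean of all probe sets and 0.13 to 0.37 with an array left out. It was 0.04 to 0.35 at 1 μM over trMCF clone 11, -0.27 to 0.03 at 1 μM and -0.12 to 0.07 at 10 μM over MCF-10F, and -0.01 to 0.10 between doses.

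Single genes changed direction in 2 cases, both with a probe set free of a shared-target suffix in trMCF clone 11 over MCF-10F: IDI1 at 0.50 and SC5D at 0.14. Otherwise 880 values stayed on their side of the threshold, 101 lost it and 59 gained it. The 880 pool members and longer-list genes with an unadjusted p under 0.05 by limma, and include values that were uncalled and stayed so. Over all alternatives EBP lay at -1.94 to -1.13 and ELOVL6 at -2.38 to -1.54 in trMCF clone 11 over MCF-10F. FDPS lay there at -1.8 to -1.27 and NSDHL at -1.85 to -1.2. Where each group fitted kept 2 arrays, the adjusted p by limma was 0.00686 to 0.12 for EBP and 0.00813 to 0.136 for ELOVL6. It was 0.0124 to 0.137 for FDPS and 0.0142 to 0.163 for NSDHL, each on both sides of the threshold. At 10 μM over MCF-10F it was 0.0354 to 0.144 for NSDHL. No label says that a replicate number marks a shared batch. Deviations of same-numbered arrays correlated at -0.06 to 0.35 between groups, and at 0.15 between trMCF clone 11 and MCF-10F, so the numbers were not taken to pair the arrays, and the replicate block moved the counts of calls only as given. Low signal limits the probe sets of IDI1 and SC5D that changed direction, whose mean log2 signals were 5.37 and 3.55.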
